A study of Homo sapiens with 6 samples.

Results

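The genes described here are 10 chaperones and regulators of the endoplasmic reticulum (ER) that mark the unfolded protein response: HSPA5, HSP90B1, DNAJB9, DNAJC3, XBP1, SDF2L1, PDIA4, CALR, HYOU1 and CRELD2. They were picked by gene symbol and not by their values, although earlier results of these data were known. They make up 10 of the 26899 genes in the deposited counts. All 10 passed the filter on low counts and were among the 15299 genes tested. RNA was sequenced from HK-2, an established human proximal tubule line transformed with human papillomavirus 16, after lipid transfection of plasmids. One group of 3 libraries carries the label ANXA2 knockdown (shANXA2) and the other 3 are named wild type in the titles and shCtrl in the descriptions. Polyadenylated RNA was used. The sources used here do not give the hairpin, the time after transfection, whether the cells were 1 clone or whether the replicates were separate cultures. The p-values therefore measure only the spread between these libraries, which may be technical. No batch is named in the labels.

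Depth was 24231267 to 34561675 counted reads per library. The targeted gene ANXA2, a membrane-binding annexin, had 1658, 1461 and 1675 CPM (read counts scaled to a common library size) in control replicates 1, 2 and 3 and 1538, 1561 and 1519 CPM in knockdown replicates 1, 2 and 3. The groups overlapped through control replicate 2, which was the lowest of the 6, while the other control-labelled libraries were above all 3 knockdown-labelled ones. The log2 fold change by edgeR was -0.05 ± 0.075 (SE), with a Benjamini-Hochberg adjusted p of 0.848 (-0.113 when control replicate 2 was omitted, unadjusted p 0.111 and adjusted p 0.92), so the groups are called control-labelled and knockdown-labelled below, and each difference is one between labels. CPM were scaled by the TMM method over the tested genes. Of the 6 epithelial markers 5 were tested. The keratins KRT8 and KRT18 were abundant, at means of 1160 and 555 CPM over all reads. KRT7, KRT19 and EPCAM had 196, 141 and 61.6 CPM, whereas CDH1 was nearly absent at 0.226 CPM. Of the 12 proximal tubule markers only 4 were tested. LRP2, the tubule receptor megalin, had at most 1 read in a library, and GGT1 and MME were the tubule markers with the highest means, 239 and 5.77 CPM. The fibroblast markers LUM and COL1A1 had means of 24.1 and 8.21 CPM, both above MME. Fibroblast, leukocyte and endothelial markers summed to at most 38, 6.6 and 0.393 CPM in a library. Their part in the results below was not tested, and in bulk RNA fewer cells of a type cannot be told apart from less RNA per cell.

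Proteins that enter the ER are folded there by chaperones, fitted with disulfide bonds and sugars, and sent to degradation when folding fails. When unfolded proteins build up, the membrane sensors IRE1, PERK and ATF6 start the unfolded protein response. IRE1 splices the mRNA of XBP1 into the form that encodes an active transcription factor, ATF6 is cut to release another, and both raise the transcription of ER chaperones, while PERK slows translation and favours ATF4 and CHOP. The response is known in injury of the kidney tubule, whose cells make many membrane transporters.

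A DNA element through which this response acts is the ER stress response element (ERSE), a site bound by the factor NF-Y together with ATF6 or XBP1. In order to see which of the 10 genes carry it, RefSeq promoter windows (GRCh38.p14, from 250 bases before the start site to 50 after it) were searched on both strands for the ERSE, spelled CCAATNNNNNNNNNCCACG, and for the shorter ERSE-II, spelled ATTGG, any base, then CCACG. All 10 genes had a window, and XBP1 and PDIA4 had 2. The ERSE was found in HSPA5, HSP90B1, XBP1, CALR and CRELD2, and ERSE-II in SDF2L1 and HYOU1. Thus 7 of the 10 genes held 1 of the 2 elements, whereas 0.161% of all 27305 genes with a window did. The 10 genes were picked as markers of the response that acts through these elements. Their higher share therefore follows in part from that choice and is not an independent result. Counted by window, 0.131% of all 35116 held one (0.0769% the ERSE and 0.0541% ERSE-II). DNAJB9, DNAJC3 and PDIA4 held neither in these exact letters within this window. A further motif, TGACGTGG, the core of the unfolded protein response element, was present in 0.729% of windows and, among the 10 genes, in HYOU1 alone, where it overlaps an ERSE-II. These matches describe the sequence and are not measured binding sites.

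The matches are shown because 7 of the 10 genes carry 1 of these elements, a feature that does not come from the expression data. Each is read 5′ to 3′ along the strand of its gene with 8 bases on either side, and capitals mark the fixed letters of the motif. Where the element lies in the other orientation its letters appear as CGTGG followed by ATTGG, or by CCAAT in ERSE-II. The windows are HSPA5 chr9:125241383-125241417 (minus strand), HSP90B1 chr12:103930208-103930242 and chr12:103930313-103930347 (plus), XBP1 chr22:28800595-28800629 (minus), CALR chr19:12938376-12938410 (plus), CRELD2 chr22:49918546-49918580 (plus), SDF2L1 chr22:21642106-21642132 (plus) and HYOU1 chr11:119057372-119057398 and chr11:119057266-119057292 (minus).
HSPA5 ERSE: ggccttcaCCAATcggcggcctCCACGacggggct
HSP90B1 ERSE, distal: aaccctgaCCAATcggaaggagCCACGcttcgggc
HSP90B1 ERSE, proximal: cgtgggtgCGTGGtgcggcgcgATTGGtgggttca
XBP1 ERSE: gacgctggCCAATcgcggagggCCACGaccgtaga
CALR ERSE: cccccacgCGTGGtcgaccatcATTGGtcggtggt
CRELD2 ERSE: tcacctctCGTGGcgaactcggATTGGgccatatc
SDF2L1 ERSE-II: ctcggaagCGTGGaCCAATcaaaaccc
HYOU1 ERSE-II, distal: ccccgtgaCGTGGtCCAATcccaggcc
HYOU1 ERSE-II, proximal: gcctgggaCGTGGtCCAATgagtacgc

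The elements lay between 225 and 34 bases before the RefSeq start site. The closest was that of XBP1, which spanned 52 to 34 bases before the start, and HSPA5 followed at 66 to 48 bases. The HSPA5 promoter is given whole (chr9:125241294-125241593, minus strand, 300 bases), since this gene is the usual read-out of the response, with the ERSE in capitals.
HSPA5 promoter: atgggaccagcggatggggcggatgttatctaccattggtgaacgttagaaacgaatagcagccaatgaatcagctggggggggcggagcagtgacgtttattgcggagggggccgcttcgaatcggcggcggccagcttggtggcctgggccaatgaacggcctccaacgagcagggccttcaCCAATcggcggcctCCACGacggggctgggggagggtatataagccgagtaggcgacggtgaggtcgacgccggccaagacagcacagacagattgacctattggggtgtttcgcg

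**Figure D1:**
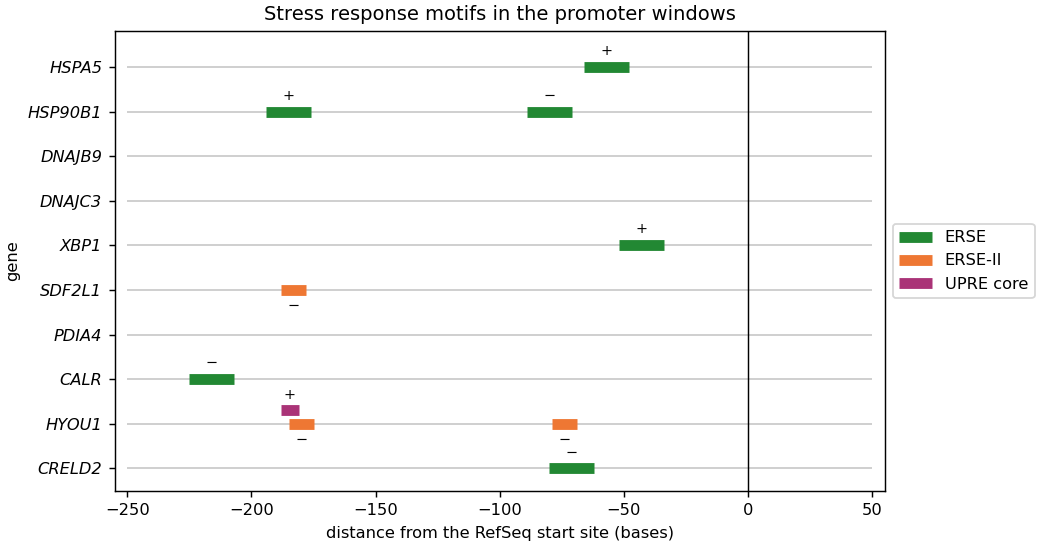
Position of each motif match in the promoter windows of the 10 genes, with distance from the RefSeq start site in bases on the x axis. Green bars are ERSE matches, orange bars ERSE-II and the purple bar the unfolded protein response element core, and plus or minus gives the orientation relative to the gene. Matches are seen for 7 genes, from 225 to 34 bases before the start, and none for DNAJB9, DNAJC3 and PDIA4.

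To place the 10 genes on a common scale, the deposited FPKM values, which are corrected for transcript length, were compared. CALR, the lectin chaperone calreticulin, was the most abundant, with FPKM levels of 1130.16 to 1330.25 over the 6 libraries. HSP90B1 (176.38 to 294.14 FPKM) and HSPA5 (179.99 to 234.28 FPKM) came next and were not separated, as HSP90B1 was above HSPA5 in 4 of 6 libraries. PDIA4 (93.54 to 111.9 FPKM) and XBP1 (79.2 to 102.08 FPKM) also had overlapping ranges, although PDIA4 was above XBP1 in 6 of 6 libraries. HYOU1 followed at 36.11 to 44.89 FPKM, apart from its neighbours. SDF2L1 (22.42 to 28.67 FPKM) and CRELD2 (23.93 to 27.38 FPKM) could not be ordered, with SDF2L1 ahead in 3 of 6 libraries. The J-domain proteins were lowest, DNAJC3 at 3.67 to 6.95 FPKM and DNAJB9 at 2.84 to 4.86 FPKM, with overlapping ranges. Calreticulin alone took 49.14% to 54.29% of the reads of the 10 genes, and the 10 together took 0.4351% to 0.5482% of the counted reads of a library.

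None of the 10 genes passed the test for a difference between the labels. By edgeR 0 of the 10 passed an adjusted p of 0.05, as did 0% of all 15299 tested genes, and 0 of the 10 had an unadjusted p under 0.05, against 8.18% of all tested genes. DESeq2 and limma-voom also gave 0 of the 10 at either threshold, although DESeq2 called 31 genes elsewhere in the table. For 9 of the 10 the estimate was below 0 and for CALR it was above 0. The median log2 fold change was -0.10, beside -0.006 over all tested genes, and it was 0.012 without control replicate 2. The groups did not overlap for PDIA4 and HYOU1, that is 2 of 10, against 15.6% of all tested genes. The plot of abundance by library shows that the 3 control-labelled libraries were more scattered than the 3 knockdown-labelled ones for each gene.

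**Figure D2:**
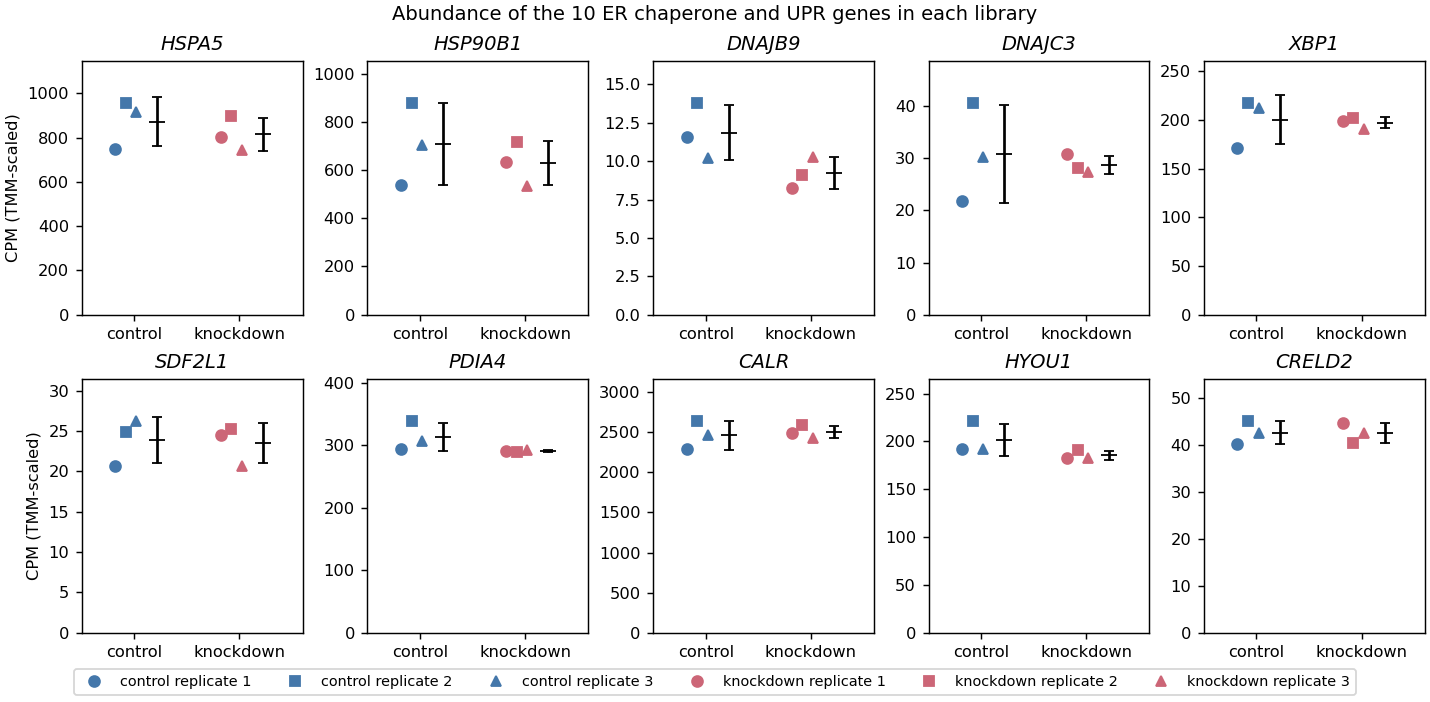
CPM of each of the 10 genes (y axis, from 0, TMM-scaled) in the 3 control-labelled (blue) and 3 knockdown-labelled (red) libraries, with circles, squares and triangles for replicates 1, 2 and 3 and black bars for the mean ± SD of a group (n = 3). Control replicate 2 (blue squares) is the highest of the 6 libraries in 9 of the 10 panels, and the groups overlap in 8.

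Among the folding chaperones, HSPA5 (BiP, also named GRP78) is the Hsp70 of the ER lumen and holds the sensors inactive when it is not occupied by unfolded proteins. HSPA5 (ENSG00000044574.7, GRCh38 chromosome 9 from 125234853 to 125241382, minus strand) had 747.8, 954.7 and 914.8 CPM in control replicates 1, 2 and 3 and 801.3, 895.4 and 745.3 CPM in knockdown replicates 1, 2 and 3. The lowest libraries of both labels were nearly level, and the groups overlapped. The group means were 872.5 ± 110 CPM in the control-labelled and 814 ± 75.8 CPM in the knockdown-labelled libraries (SD, n = 3), with a log2 fold change by edgeR of -0.10 ± 0.11 (SE) and an adjusted p of 0.805. The 95% interval extended from -21.4% to 10.8%. The HSPA5 estimate was -0.198 with control replicate 1 left out and -0.029 with control replicate 2 left out.

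HSP90B1 (GRP94), the Hsp90 of the ER, lies on chromosome 12 from 103930107 to 103953931 (ENSG00000166598.12, plus strand). Control replicates 1, 2 and 3 held 535.9, 876.6 and 705.5 CPM, and knockdown replicates 1, 2 and 3 held 635.1, 716.8 and 532.7 CPM. Within the control label alone the highest library exceeded the lowest 1.64-fold, more than the difference between group means. Those means were 706 ± 170 and 628.2 ± 92.2 CPM (SD, n = 3), and the log2 fold change by edgeR was -0.17 ± 0.172 (SE), with an adjusted p of 0.791. HSP90B1 stood at 0.019 when control replicate 2 was omitted and at -0.331 when control replicate 1 was omitted (unadjusted edgeR p 0.0434, adjusted p between 0.393 and 0.996 over the 17 alternatives). Its exons share 805 of 13092 bases with UQCC6 on the other strand, a gene with 2008 reads over the 6 libraries.

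HYOU1 (GRP170), a large Hsp70-like protein that helps BiP exchange its nucleotide, lies on chromosome 11 from 119044188 to 119057227 (ENSG00000149428.18, minus strand). It had 192, 221.2 and 192 CPM in the control-labelled libraries and 182.6, 191.1 and 182.9 CPM in the knockdown-labelled ones. All 3 control-labelled values were above the 3 others, but by under 1 CPM at the nearest point. Its log2 fold change was -0.12 ± 0.093 (SE, edgeR adjusted p 0.72), the exact two-sided permutation p was 0.1, the smallest that 3 against 3 libraries allow, and the interval ran from -20.5% to 6.33%. Without control replicate 2 the estimate for HYOU1 was -0.048.

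CALR, which with calnexin retains glycoproteins until they are folded, lies on chromosome 19 from 12938578 to 12944489 (ENSG00000179218.13, plus strand). Its levels were 2287, 2640 and 2462 CPM in control replicates 1, 2 and 3 and 2498, 2589 and 2429 CPM in knockdown replicates 1, 2 and 3. The knockdown-labelled values all fell inside the range of the control-labelled ones. CALR was also the most precisely measured of the 10: the group means of 2463 ± 177 and 2505 ± 80.4 CPM (SD, n = 3) gave a log2 fold change of 0.025 ± 0.072 (SE, edgeR adjusted p 0.936) and an interval from -9.13% to 13.9%.

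The co-chaperones of BiP were examined next. DNAJB9 (ERdj4), a J-domain protein of the ER that brings BiP to IRE1 and to degradation substrates, lies on chromosome 7 from 108569867 to 108574850 (ENSG00000128590.4, plus strand). It had 11.56, 13.77 and 10.21 CPM in control replicates 1, 2 and 3 and 8.264, 9.116 and 10.29 CPM in knockdown replicates 1, 2 and 3. The estimate was the farthest from 0 of the 10, yet knockdown replicate 3 stood slightly above control replicate 3. The means of 11.85 ± 1.8 and 9.222 ± 1.02 CPM (SD, n = 3) corresponded to a log2 fold change of -0.36 ± 0.174 (SE), an unadjusted edgeR p of 0.0657 and an adjusted p of 0.615. The interval for DNAJB9 ran from -40.7% to 2.02%, and the 6 omissions of a library gave -0.458 to -0.238, each below 0. Without control replicate 3 and without knockdown replicate 3 the unadjusted p fell under 0.05 (0.043 at the lowest), with adjusted p of 0.439 to 0.988 over the 17 alternatives. Reads per library were 282 to 450.

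DNAJC3 (p58IPK) is a J-domain protein known as an inhibitor of the kinases PERK and PKR. On chromosome 13 from 95677139 to 95794988 (ENSG00000102580.14, plus strand), it had 21.81, 40.54 and 30.21 CPM in control replicates 1, 2 and 3 against 30.74, 28.16 and 27.33 CPM in knockdown replicates 1, 2 and 3. The control-labelled libraries spanned a ratio of 1.86, the widest of the 10 genes, and enclosed all 3 knockdown-labelled values. The log2 fold change was -0.10 ± 0.2 (SE, edgeR adjusted p 0.896), with an interval from -31.9% to 27.1%. Single libraries set its sign, with -0.298 when control replicate 1 was omitted and 0.144 when control replicate 2 was.

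SDF2L1, which works with the J-domain proteins of the ER, lies on chromosome 22 from 21642302 to 21644299 (ENSG00000128228.4, plus strand). It was the 1 gene that did not peak in control replicate 2. Its values were 20.62, 24.81 and 26.2 CPM in control replicates 1, 2 and 3 and 24.5, 25.26 and 20.71 CPM in knockdown replicates 1, 2 and 3. With a log2 fold change of -0.024 ± 0.14 (SE) and an edgeR adjusted p of 0.97, the groups were not distinguishable at this spread (interval from -21% to 22.4%).

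The disulfide-handling genes were PDIA4 and CRELD2. PDIA4 (ERp72), a disulfide isomerase, lies on chromosome 7 from 149003062 to 149028662 (ENSG00000155660.10, minus strand). It had 293.5, 338.8 and 307.9 CPM in control replicates 1, 2 and 3, and its knockdown-labelled libraries were nearly identical at 290.7, 290.2 and 292.4 CPM. The groups did not overlap, by about 1 CPM between control replicate 1 and knockdown replicate 3. The means of 313.4 ± 23.1 and 291.1 ± 1.16 CPM (SD, n = 3) gave a log2 fold change of -0.11 ± 0.086 (SE) and an edgeR adjusted p of 0.731, the exact permutation p was 0.1, and the interval ran from -18.8% to 6.27%. Without control replicate 2 the PDIA4 estimate was -0.045.

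CRELD2, a secreted and ER-resident protein with isomerase activity, lies on chromosome 22 from 49918167 to 49927540 (ENSG00000184164.14, plus strand). Its level was 40.17, 45.03 and 42.47 CPM in control replicates 1, 2 and 3 and 44.72, 40.34 and 42.6 CPM in knockdown replicates 1, 2 and 3. The means were level at 42.56 ± 2.43 and 42.55 ± 2.19 CPM (SD, n = 3), with a log2 fold change of -0.0005 ± 0.104 (SE) and an edgeR adjusted p of 0.999. The interval of -15% to 17.6% still leaves room for a small change in either direction. CRELD2 and ALG12 share 168 of 5166 exon bases on opposite strands, and since the libraries were directional but no strand setting of the counting is stated, whether reads of that stretch were separated is unknown.

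XBP1, the transcription factor of the IRE1 branch, lies on chromosome 22 from 28794555 to 28800597 (ENSG00000100219.16, minus strand). It had 171.7, 217.1 and 212.7 CPM in control replicates 1, 2 and 3 and 198.7, 202.3 and 190.8 CPM in knockdown replicates 1, 2 and 3. The knockdown-labelled values again lay inside the control-labelled range. The means of 200.5 ± 25 and 197.3 ± 5.9 CPM (SD, n = 3) gave a log2 fold change of -0.024 ± 0.108 (SE), an edgeR adjusted p of 0.961 and an interval from -16.8% to 16.4%. Counts per gene do not separate the spliced from the unspliced XBP1 mRNA, so the activity of IRE1 was not measured here.

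**Figure D3:**
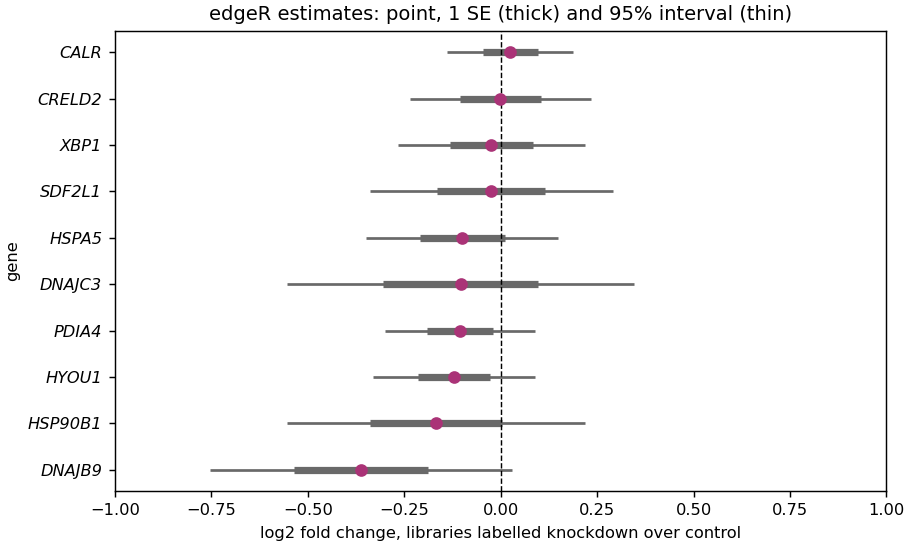
Log2 fold change by edgeR of each gene, knockdown-labelled over control-labelled libraries (x axis), with thick bars for 1 standard error and thin bars for the 95% interval (n = 3 against 3). All 10 intervals include 0, with DNAJB9 lowest at -0.36 and CALR highest at 0.025.

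How large a change these libraries could have hidden is read from the intervals. On the log2 scale the lower bounds reached -0.754 for DNAJB9 and the upper bounds reached 0.346 for DNAJC3, so a change of 1 log2 unit in either direction lay outside the interval of each of the 10. Leaving out 1 library moved the estimates within -0.458 (DNAJB9 without control replicate 3) and 0.144 (DNAJC3 without control replicate 2). The signs of the estimates turned under at least 1 omission for HSP90B1, DNAJC3, XBP1, SDF2L1, CALR and CRELD2.

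**Figure D4:**
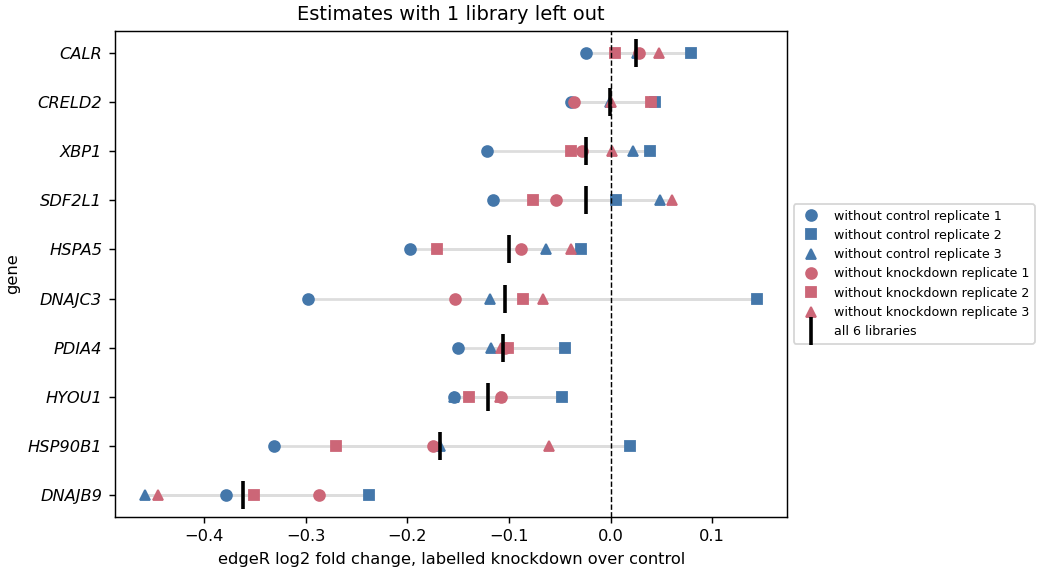
Log2 fold change by edgeR of each gene (x axis) with all 6 libraries (black bar) and with 1 library left out, where colour gives the label and shape the replicate of the omitted library. Omitting control replicate 2 (blue squares) gave the highest estimate for 9 of the 10 genes, and omitting control replicate 1 (blue circles) gave the lowest for 9.

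Most or all of the 10 genes were above their own mean in control replicate 2 and below it in control replicate 1 and knockdown replicate 3. Knockdown replicates 1 and 2 showed no such common direction, with 5 of 10 above their own mean in each. In control replicate 2 all 10 were above their own mean over the 6 libraries, by 0.221 ± 0.15 on the log2 scale (mean and SD over the 10 genes), and 9 of 10 had their highest CPM there. Control replicate 2 was the highest library for 27.8% of the 8915 tested genes with a mean of at least 10 CPM and the lowest for 28.7%, so it stood apart in both directions. In control replicate 1 the 10 genes averaged -0.138 ± 0.16 and in knockdown replicate 3 -0.098 ± 0.095, and in each only 1 gene was above its mean (DNAJB9 and CRELD2, respectively). These were the libraries with the fewest counted reads, 24231267 and 28866835, and the part of depth in the pattern was not tested. For 6 of the 10 genes they were the 2 lowest libraries, against 14.8% of the 8915 genes. The SD of the control-labelled libraries exceeded that of the knockdown-labelled ones for 10 of 10 genes, against 61.6% of the 8915. For 10 of 10 the range among the control-labelled libraries was wider than the difference between group means, as for 82.4% of the 8915. The ratio of the highest to the lowest library was 1.267 at the median of the 10 genes, below the 1.372 of the 8915. It was above that for DNAJC3, DNAJB9 and HSP90B1, at 1.86, 1.67 and 1.65. The 8915 genes were not matched to the 10 in abundance. The genes share libraries and depth, and these counts carry no test.

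**Figure D5:**
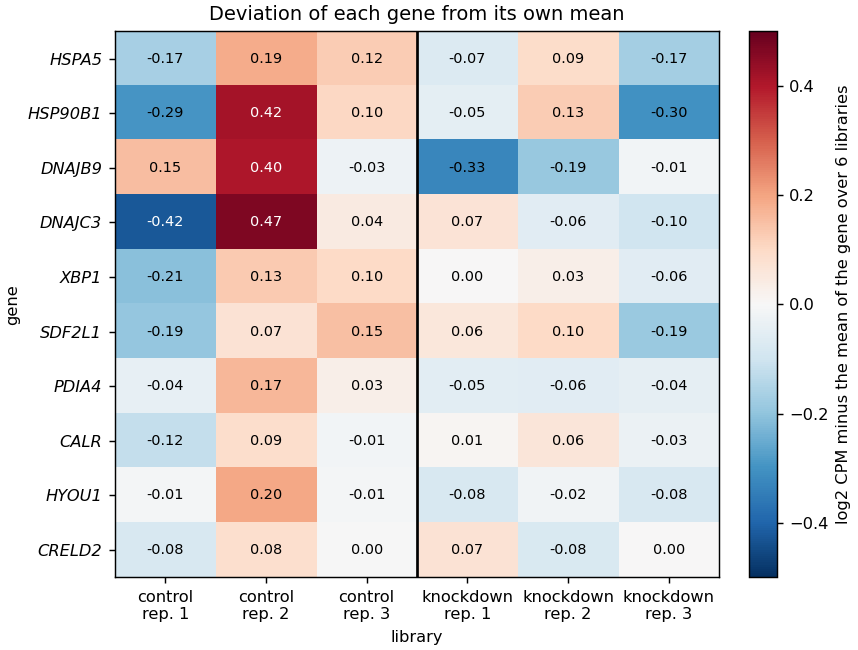
Deviation of log2 CPM of each gene (rows) from its mean over the 6 libraries (columns), with red above and blue below the mean and the value printed in each cell. The column of control replicate 2 is above 0 for all 10 genes, with 0.47 for DNAJC3 and 0.42 for HSP90B1 at the top.

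The genes whose profile over the 6 libraries was most like that of the 10 were named by the highest Pearson correlation of log2 CPM with the mean of the standardised members, among 8905 other genes with a mean of at least 10 CPM. They were SMC4 (a condensin subunit, r = 0.996), TFRC (the transferrin receptor, 0.993), SLK (a kinase, 0.992), MNAT1 (0.992) and DNAJC9 (a histone chaperone, 0.991), none of them an ER chaperone. TFRC, for example, had 287.7, 508.4 and 380.7 CPM in control replicates 1, 2 and 3 and 334.5, 368.5 and 301.6 CPM in knockdown replicates 1, 2 and 3. With only 6 libraries and so many genes ranked, correlations of this size describe the ranking and are not evidence of a relation. Over the members themselves r with that mean ran from 0.447 (DNAJB9) to 0.962 (HSP90B1). Each member is part of that mean, which raises its own r, so these values cannot be compared with those of other genes. In the lists of other genes described below, the median r was 0.73 for other ER folding factors and 0.284 to 0.573 for the rest. Over all 8905 ranked genes the median r was 0.00384, and no test was made of these medians.

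Other genes of the pathway were then compared in lists chosen by function. Of the 6 sensors and ATF6-cutting proteases, 0 passed an adjusted or unadjusted p of 0.05 and 4 had estimates below 0, with a median log2 fold change of -0.107 (-0.058 with control replicate 2 left out). ERN1, which encodes IRE1, had the largest estimate at 0.68 ± 0.399 (SE, edgeR adjusted p 0.654), from 6.805, 4.344 and 8.892 CPM in control replicates 1, 2 and 3 and 12.01, 15.14 and 4.78 CPM in knockdown replicates 1, 2 and 3. The ERN1 estimate was 0.339 with knockdown replicate 2 left out, 0.443 with control replicate 2 left out and 1.026 with knockdown replicate 3 left out (unadjusted p 0.00765, adjusted p 0.549), and it was 0.27 by limma-trend on log2(FPKM + 1). Those groups overlapped, since knockdown replicate 3 was below 2 of the control-labelled libraries. EIF2AK3, which encodes PERK, had -0.13 ± 0.161 (SE, adjusted p 0.83), and ran from -0.281 with knockdown replicate 2 left out to -0.0086 with knockdown replicate 3 left out.

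The nearest relatives of the members were 20 other ER folding factors. None passed the adjusted threshold, 15 had estimates below 0, the median was -0.134 (-0.037 without control replicate 2), and 14 of the 20 were highest in control replicate 2. The unadjusted p was under 0.05 for 3 of the 20 (8.18% of all tested genes), with estimates below 0 for each. They were UGGT1 and, named after their values were seen, PDIA6 and ERO1L. UGGT1, the sensor enzyme that returns misfolded glycoproteins to calreticulin, had 108.1, 138.8 and 113.5 CPM in control replicates 1, 2 and 3 and 98.87, 103.8 and 79.14 CPM in knockdown replicates 1, 2 and 3. These groups did not overlap. Its log2 fold change by edgeR was -0.36 ± 0.137 (SE), with an adjusted p of 0.605, and leaving out single libraries gave -0.429 to -0.236. ERO1LB, an oxidase that feeds disulfide bonds to the isomerases, had the largest estimate of the list, -0.43 ± 0.218 (SE, adjusted p 0.625), and was -0.26 with control replicate 2 left out.

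Of the 15 genes of ER-associated degradation, 0 passed the adjusted threshold, 10 had estimates below 0 and the median was -0.105 (-0.057 with knockdown replicate 3 left out). SEL1L, the scaffold of the HRD1 ubiquitin ligase, had 25.38, 38.39 and 28.54 CPM in control replicates 1, 2 and 3 and 23.68, 23.86 and 19.85 CPM in knockdown replicates 1, 2 and 3, with no overlap. It was the 1 gene of the 15 with an unadjusted edgeR p under 0.05 (0.0239, adjusted p 0.605), against 8.18% of all tested genes. Its log2 fold change of -0.46 ± 0.169 (SE) was -0.261 without control replicate 2. DERL3 had -0.54 ± 0.391 (SE) at only about 1 CPM. Among 20 genes of ER translocation and glycosylation 0 passed and the median was -0.048 (-0.116 with control replicate 1 left out and -0.031 with knockdown replicate 2 left out). STT3B, a catalytic subunit of the oligosaccharyltransferase, had -0.37 ± 0.191 (SE) and SSR1, a subunit of the translocon-associated complex, had -0.31 ± 0.14 (SE), with edgeR adjusted p of 0.631 and 0.61, and with control replicate 2 left out STT3B was -0.08 and SSR1 -0.141.

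For the PERK, ATF4 and CHOP branch, 0 of 10 genes passed the adjusted threshold. The unadjusted edgeR p was under 0.05 for 1 of the 10, against 8.18% of all tested genes. The median was 0.085 (0.213 when control replicate 2 was omitted and -0.038 when control replicate 3 was). CHAC1 (log2 fold change -1.09 ± 0.653 SE, edgeR adjusted p 0.66) and SESN2 (-0.60 ± 0.349 SE, adjusted p 0.648) rested on control replicate 2, where they had 20.34 and 83.82 CPM against at most 7.159 and 33.48 CPM in the other 5 libraries, and without it the estimates were 0.05 and 0.057. When no filter on low counts was applied, both passed the edgeR threshold (adjusted p 0.00226 for CHAC1 and 0.0082 for SESN2), while in the other alternatives neither did. PPP1R15A (GADD34), the phosphatase subunit that reverses PERK signalling, was that 1 gene and was chosen after its values were seen. It had 243.2, 260.4 and 249.3 CPM in control replicates 1, 2 and 3 and 309.6, 314.5 and 316.8 CPM in knockdown replicates 1, 2 and 3. Its groups did not overlap, as for 15.6% of all tested genes. The log2 fold change by edgeR was 0.32 ± 0.079 (SE), with an unadjusted p of 0.00274 and an adjusted p of 0.599. As a set outside the ER, 16 cytosolic and mitochondrial chaperones had 0 past either threshold and a median of -0.038 (-0.096 with control replicate 1 left out and -0.003 with control replicate 3 left out). HSPH1 (-0.32 ± 0.143 SE) and HSPB1 (0.27 ± 0.137 SE) had the largest estimates, with edgeR adjusted p of 0.61 and 0.625, and with control replicate 2 left out they were -0.193 and 0.149. Of those 16, 5 were highest in control replicate 2 and 6 were lowest there. The counts highest in that library were 3 of 6 for the sensors, 4 of 15 for ER-associated degradation, 9 of 20 for translocation and glycosylation and 5 of 10 for the PERK branch, beside 27.8% of the 8915 genes, and no test was made of these shares.

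The ERSE was finally used to look outside the lists. Besides the members, 37 genes had an ERSE or ERSE-II in a RefSeq window, and 23 of them were tested. None passed the adjusted threshold, and 3 of the 23 had an unadjusted p under 0.05, against 8.18% of all tested genes. Those 3 were PDIA6, SERP1 and SHCBP1, named after their values were seen. The median log2 fold change of the 23 was -0.019, with 9 estimates above 0 and 14 below. In control replicate 2, 9 of the 23 peaked, against 25.7% of all tested genes, and no test was made of these shares. Of the 37, 4 belong to the lists above: CANX, PDIA6 and ERO1LB among the folding factors and HERPUD1 in ER-associated degradation. Within the members, the 7 with an element had estimates of -0.168 to 0.025 and the 3 without one had -0.362 to -0.104, and no test was made of that split.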

How the data were processed

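The authors deposited raw read counts per gene for 26899 genes and FPKM values, rounded to 2 decimals, for 26803 of them. The submitters' processing notes name bcl2fastq, TopHat2, edgeR and GRCh38, without roles. Which program counted reads, with which annotation release and strand setting: not given in the sources used here. Libraries were grouped by their titles. Differences were fitted by quasi-likelihood in edgeR 4.0.16 (R 4.3.3) on these counts, with TMM scaling and the default low-count filter (minimum count 10, minimum total 15), with no covariates, two-sided tests, Benjamini-Hochberg adjustment over 15299 genes and a threshold of 0.05. Alternatives were RLE, upper-quartile and library-size scaling, no filter, a mean of 1 CPM, DESeq2 1.42.0, limma-voom and limma-trend (limma 3.58.1) on log2(FPKM + 1), log2(FPKM + 0.1) or log2(FPKM + 1) of genes with a mean FPKM of at least 1, a replicate block and the omission of each library. The exact permutation test compared CPM values. The main edgeR fit, the replicate block, DESeq2, limma-voom and limma-trend were tested on simulated counts. For limma-trend these were scaled to library size in place of FPKM. The other alternatives were not tested in this way. The intervals cover the spread between libraries.

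The members and the gene lists were chosen with earlier results of these data known, and the genes with an ERSE after the data were seen. Genes named by rule were all members, ANXA2, the 2 tested genes of each list with the estimates farthest from 0 and any past the adjusted threshold, and the 5 other genes (mean of at least 10 CPM) of most similar profile. Gene coordinates come from GENCODE release 44 and promoters from RefSeq. Replicates differed beyond sampling noise (chi-square per degree of freedom 9.64 to 49.7).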

Additional observations from a re-analysis of the deposited data

How the results depend on the processing

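None of the 10 genes passed an adjusted p of 0.05 in the main analysis or in any of the 17 alternatives, and none did at 0.1. Over all genes the count past 0.05 was 0 in the main analysis, 165 without a filter on low counts (with 2078 at an unadjusted p under 0.05, against 1251) and 31 with DESeq2, and leaving out single libraries gave 0 to 4 (4 without knockdown replicate 2) and 505 to 1947 at an unadjusted p under 0.05. CHAC1 and SESN2 were among the 165 (adjusted p 0.00226 and 0.0082). The cause was not tested. For the members, leaving out single libraries gave 0 to 1 with an unadjusted p under 0.05. The median of ER-associated degradation ran from -0.141 to -0.057. Only CRELD2 changed sign outside the omissions, at 0.001 with RLE, 0.017 with upper-quartile scaling, 0.0023 without a filter, 0.003 at a mean of 1 CPM and 0.0013 with DESeq2. Omissions of single libraries turned the sign of CRELD2 (-0.039 to 0.044), HSP90B1 (-0.331 to 0.019), DNAJC3 (-0.298 to 0.144), XBP1 (-0.122 to 0.039), SDF2L1 (-0.116 to 0.06), CALR (-0.024 to 0.079), CHAC1 (-1.58 to 0.05) and SESN2 (-0.874 to 0.057).

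With a replicate block the members' median was -0.079 and 0 of 10 passed either threshold, and over all genes 0 passed the adjusted one. Deviations of same-numbered libraries correlated at -0.0616, 0.118 and -0.203 for numbers 1, 2 and 3, so no consistent pairing by number was seen. Deviations within a group depend on each other, and these values cannot show whether same-numbered libraries were prepared together.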
